A study of Mus musculus with 9 samples.

Results

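The chaperonin genes of mouse CD8 T cells are described here: the 8 genes of the cytosolic chaperonin CCT (Tcp1, Cct2, Cct3, Cct4, Cct5, Cct6a, Cct7 and Cct8) and the 2 genes of the mitochondrial chaperonin (Hspd1 and Hspe1). They were taken by gene symbol from a table of 23936 named genes, and all 10 were found. All 10 also passed the filter on low values, which kept 10185 genes at 1 FPKM or more in at least 3 libraries. Their lowest value in any library was 69.0 FPKM, for Hspd1 in naive cells. FPKM, fragments normalised to the length of the transcript and to all mapped fragments of the library, is the level as the authors deposited it.

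The cells were OT-I cells, CD8 T cells with a transgenic receptor for an ovalbumin peptide, and all 9 RNA-seq libraries came from such cells. Of the 3 groups, MLN-primed cells came from the MLN (by common usage the mesenteric lymph node, which drains the gut) and carry the word oral in their names. Spleen-primed cells came from the spleen and carry the word iv, and naive cells also came from the spleen. Each group had 3 libraries, so the organ and the route named in the labels changed together and cannot be told apart. The time after priming, the priming agent, the age of the mice and the number of mice behind a library were not stated in the labels used. The p-values therefore measure the spread between libraries, which may be technical.

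Chaperonins are ATP-driven ring chambers that enclose a protein while it folds. CCT, also called TRiC, is built of stacked rings that each hold 8 related but distinct subunits. It folds actin, tubulin and many proteins of the WD40 repeat family, and prefoldin hands it part of its substrates. In the mitochondrial matrix, Hspd1 (HSP60) forms the chamber and Hspe1 (HSP10) its lid, and together they fold proteins imported into the mitochondrion. T cells that have met antigen enlarge, raise protein synthesis and build up mitochondria before they divide.

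Hspd1 and Hspe1 lie head to head on mouse chromosome 1. In RefSeq on GRCm38, Hspd1 runs on the minus strand at chr1:55077833-55088243 and Hspe1 on the plus strand at chr1:55088148-55091317. The first line below is the window of 250 bases before to 50 bases after the start of Hspe1, at chr1:55087898-55088197 on the plus strand, from RefSeq on GRCm38.p6. It is shown because the start regions of the pair overlap, so that the same bases can be set beside both genes' levels. The capitals mark an 18-base run that holds heat shock units, the letters TTC and GAA in turn, the pattern that heat shock factors bind. The other windows are those of Tcp1, at chr17:12916079-12916378, and of Cct7, at chr6:85451255-85451554, both on the plus strand. They are shown as CCT genes that changed strongly and near the family's average in MLN-primed against naive cells, and their capitals mark the GC box GGGCGG on either strand.
Hspe1: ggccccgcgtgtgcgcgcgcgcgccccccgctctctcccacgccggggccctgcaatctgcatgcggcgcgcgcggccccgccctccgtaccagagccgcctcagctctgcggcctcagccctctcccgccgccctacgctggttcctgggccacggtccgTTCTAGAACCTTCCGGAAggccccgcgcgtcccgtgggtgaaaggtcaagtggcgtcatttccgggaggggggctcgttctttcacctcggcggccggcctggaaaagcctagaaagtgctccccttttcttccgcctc
Tcp1: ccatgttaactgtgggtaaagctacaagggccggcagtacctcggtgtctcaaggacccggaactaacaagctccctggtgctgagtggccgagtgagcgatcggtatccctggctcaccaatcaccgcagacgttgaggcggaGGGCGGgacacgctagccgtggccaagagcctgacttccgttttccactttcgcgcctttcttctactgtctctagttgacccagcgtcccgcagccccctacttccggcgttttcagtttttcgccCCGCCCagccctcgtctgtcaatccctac
Cct7: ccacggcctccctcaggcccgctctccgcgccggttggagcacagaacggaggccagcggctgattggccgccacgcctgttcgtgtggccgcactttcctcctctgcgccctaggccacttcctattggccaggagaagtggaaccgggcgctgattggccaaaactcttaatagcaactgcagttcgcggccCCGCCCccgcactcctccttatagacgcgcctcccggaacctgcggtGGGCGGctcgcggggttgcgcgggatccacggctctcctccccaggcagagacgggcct
The run in the Hspe1 window, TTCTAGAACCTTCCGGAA at chr1:55088059-55088076, began 89 bases and ended 72 bases before the Hspe1 start. A second annotated Hspd1 start lies 216 bases from that of Hspe1, and its window holds the same bases. The search pattern for 3 heat shock units (TTC, any 2 bases, GAA, any 2 bases, TTC), read on both strands, was found in 198 of 32851 such windows of the mouse genome, or 0.603%. Of the 9 chaperonin genes with a window, Hspd1 and Hspe1 held it. The GC box GGGCGG, on both strands, was in 35.7% of all windows and in a window of all 9 genes. CCAAT was in 37.4% of all windows and in those of Tcp1, Cct3, Cct6a, Cct7 and Hspd1. CACGTG, the site of MYC and its partner MAX, was in 7.15% of all windows and, among the 9 genes, in 1 window of Hspd1. TGATGNAA, a core shared by C/EBP and ATF factors, was in 3.97% of all windows and in none of the 12 windows of these genes. Overlaps between patterns were allowed, and a match describes letters and not binding.

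The libraries had summed levels of 612887 to 720165 FPKM, which do not measure their size, and 9469 to 9667 genes at 1 FPKM or more. FPKM keep no read numbers, so the depth is unknown and no counting interval can be given. Against their group, MLN-primed 1 and spleen-primed 3 had the outermost trends with transcript length, with log2 slopes of -0.09 and 0.08 per doubling of length. MLN-primed 1 was the highest of its group for 10 of 10 chaperonin genes, against 36.5% of all tested genes. Spleen-primed 3 was the lowest of its group for 8 of 10, against 34.6%. The 8 markers of CD8 T cells, all in the table, summed to 2076 to 2152 FPKM in MLN-primed, 3034 to 3141 FPKM in spleen-primed and 3974 to 4305 FPKM in naive libraries. The 7 markers of activated T cells summed to 1273 to 1366 FPKM in MLN-primed, 1591 to 1852 FPKM in spleen-primed and 26.7 to 33.2 FPKM in naive libraries. In the primed groups Gzmb made up most of these sums, with a mean FPKM of 1169 in the MLN-primed and 1499 in the spleen-primed group. Il2ra had the opposite order, at 22.3 to 26.9 FPKM in MLN-primed, against 10.04 to 15.7 FPKM in spleen-primed libraries. Mki67 overlapped, at 8.32 to 84.1 FPKM in MLN-primed, against 13.4 to 87.1 FPKM in spleen-primed libraries. The 6 markers of B cells stayed at 6.49 to 14.9 FPKM in all libraries, with Pax5 at 0 in all MLN-primed and naive libraries. Of 8 myeloid markers 7 were in the table. They summed to 15.4 to 18.5 FPKM in MLN-primed, 45.2 to 48.4 FPKM in spleen-primed and 5.92 to 46.2 FPKM in naive libraries. Itgam and Cd68 led the sums in primed cells, and Cd14, S100a8 and S100a9 were at 0 in all MLN-primed libraries. S100a8, S100a9 and Lyz2 led the naive sum instead, with means of 11.2, 8.26 and 5.79 FPKM. Their means in spleen-primed cells were 0.102, 0.293 and 0.863 FPKM, in that order. S100a8 differed between naive libraries, at 1.82, 12.1 and 19.6 FPKM in naive 1, 2 and 3. The 8 dendritic cell markers summed to 1.52 to 1.83 FPKM in MLN-primed, 1.84 to 3.97 FPKM in spleen-primed and 43.4 to 79.2 FPKM in naive libraries. Most of the naive sum came from H2-Aa, with a mean of 33.3 FPKM, and H2-Ab1, with a mean of 30.3 FPKM. The 6 stromal and endothelial markers, with Pdpn and Col3a1 at 0 in all 9 libraries, summed to 2.52 to 3.67 FPKM in MLN-primed, 3.24 to 4.57 FPKM in spleen-primed and 37.0 to 43.7 FPKM in naive libraries. Pecam1 made up most of each of these sums, with a mean of 39.4 FPKM in naive cells. Cdh5 ran the other way, with means of 0.0563 FPKM in naive and 0.640 FPKM in MLN-primed cells. The part of these differences in the results was not tested.

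In MLN-primed against spleen-primed cells all 10 chaperonin genes were higher. The ratio of means ran between 1.31 for Cct2 and 2.55 for Hspd1, and no gene's replicates overlapped between the groups. The call was an adjusted p under 0.05 in limma, fitted on log2(FPKM + 1) over all 10185 genes with Benjamini-Hochberg adjustment. By that rule 17.3% of all tested genes were higher and 13.1% lower, and 25.1% were higher without overlap. Of all genes called, 56.9% were higher here, and 46.2% with median-of-ratios scaling. On the log2(FPKM + 1) scale the median change was 0.56 for the 8 CCT genes and 0.03 for all tested genes. In bulk RNA, a level that differs because fewer cells express the gene and one that differs because each cell holds less RNA cannot be told apart. All 10 calls held with MLN-primed 1 and spleen-primed 3 both left out, and under each of the 21 settings tried.

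Hspd1, the chamber-forming subunit of the mitochondrial chaperonin, had the largest change of the 10. Its level was 535, 481 and 493 FPKM in the MLN-primed libraries, 210.1, 185 and 196 FPKM in the spleen-primed libraries and 80.5, 69.0 and 75.2 FPKM in the naive libraries. The 3 groups formed 3 separate steps, with MLN-primed cells highest. Between MLN-primed and spleen-primed cells the log2 difference was 1.35 ± 0.08 (SE, limma adjusted p = 1.08e-05), which placed Hspd1 at 23 of 10185 genes ranked from the largest rise. Between spleen-primed and naive cells it was 1.38 ± 0.08 (limma adjusted p = 1.31e-07), at rank 1022. Within a library, Hspd1 was the 192nd or 193rd most abundant gene in MLN-primed cells, the 433rd to 499th in spleen-primed cells and the 764th to 908th in naive cells.

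Hspe1, the lid of the same chamber, was also higher in MLN-primed against spleen-primed cells. Its level was 536, 382 and 447 FPKM in the MLN-primed libraries, 245, 218 and 192 FPKM in the spleen-primed libraries and 192, 242 and 225 FPKM in the naive libraries. The MLN-primed libraries stood above all others, while the spleen-primed and naive libraries overlapped. The log2 difference between MLN-primed and spleen-primed cells was 1.05 ± 0.14 (SE, limma adjusted p = 5.37e-04), at rank 73. With MLN-primed 1 and spleen-primed 3 left out it was 0.84. Between spleen-primed and naive cells the difference was -0.01 ± 0.14 (limma adjusted p = 0.95), with a 95% interval of -0.32 to 0.30. That value depended on the scaling: it was -0.59 after quantile normalisation (limma adjusted p = 6.63e-04) and -0.42 with the trend over transcript length removed (limma adjusted p = 7.20e-04). The Hspe1 transcript is 774 bases long and those of the other 9 genes 1853 to 2484 bases.

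**Figure D1:**
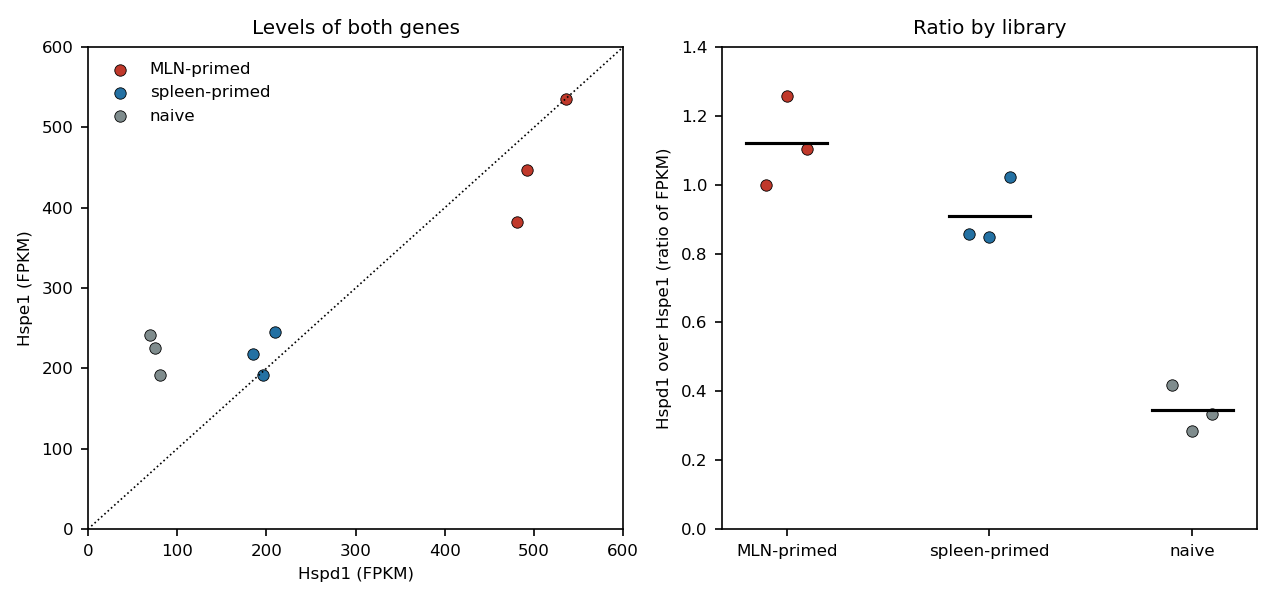
On the left, the level of Hspe1 against that of Hspd1 in FPKM in each library, with a dotted line where both are equal; on the right, Hspd1 divided by Hspe1 in each library, with black lines for group means (1.12 in MLN-primed, 0.910 in spleen-primed and 0.346 in naive cells). The naive libraries lay at 69.0 to 80.5 FPKM of Hspd1 beside 192 to 242 FPKM of Hspe1, far above the dotted line, and the order of spleen-primed and naive cells in Hspe1 changed with the scaling.

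The balance between the chamber and its lid was taken as a ratio within each library. Hspd1 divided by Hspe1 was 0.999, 1.26 and 1.10 in MLN-primed libraries, 0.857, 0.849 and 1.02 in spleen-primed libraries and 0.419, 0.285 and 0.334 in naive libraries. Every primed library was above every naive library, and the MLN-primed and spleen-primed libraries overlapped. On the log2 scale the ratio differed by 1.41 between spleen-primed and naive cells and by 1.71 between MLN-primed and naive cells (two-sided exact permutation test, p = 0.1 each, the smallest value that 3 against 3 libraries allow). Between MLN-primed and spleen-primed cells it differed by 0.30 (two-sided exact permutation test, p = 0.2). The genes share 112 exonic bases on opposite strands, and whether strand was used in the quantification is not stated in the labels or notes used. RefSeq lists 23 pseudogenes of Hspd1 and 7 of Hspe1. None was a row of the table, and how reads shared with them were assigned is not known, so both levels are uncertain to that extent.

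Among the CCT subunits, Cct6a and Cct3 (zeta and gamma) changed most between MLN-primed and spleen-primed cells. Cct6a had 305, 256 and 257 FPKM in MLN-primed libraries, 162, 149 and 137 FPKM in spleen-primed libraries and 102, 86.3 and 92.1 FPKM in naive libraries. Cct3 had 311, 255 and 269.8 FPKM in MLN-primed libraries, 171, 171 and 149 FPKM in spleen-primed libraries and 92.7, 84.1 and 99.6 FPKM in naive libraries. Both genes formed 3 steps without overlap. The log2 difference between MLN-primed and spleen-primed cells was 0.86 ± 0.10 for Cct6a (SE, limma adjusted p = 2.29e-04) and 0.76 ± 0.10 for Cct3 (limma adjusted p = 4.54e-04), at ranks 152 and 221. Between spleen-primed and naive cells it was 0.67 for Cct6a and 0.82 for Cct3.

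Cct8 and Tcp1, which encode the theta and alpha subunits of the ring, also formed 3 steps. Cct8 had 266, 246 and 244 FPKM in MLN-primed libraries, 163, 158 and 159 FPKM in spleen-primed libraries and 95.9, 86.0 and 95.5 FPKM in naive libraries. Tcp1 had 322, 279 and 264 FPKM in MLN-primed libraries, 210.3, 198 and 184 FPKM in spleen-primed libraries and 98.1, 92.6 and 96.9 FPKM in naive libraries. In MLN-primed against spleen-primed cells, Cct8 was higher by 0.65 ± 0.07 (SE, limma adjusted p = 1.28e-04) and Tcp1 by 0.54 ± 0.08 (limma adjusted p = 0.00127) on the log2 scale. In spleen-primed against naive cells Tcp1 had the largest change of the 8 CCT genes, 1.03 ± 0.08 (limma adjusted p = 1.79e-06).

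Cct7, the eta subunit, had 276, 237 and 252 FPKM in MLN-primed libraries, 173, 175 and 162 FPKM in spleen-primed libraries and 102, 106 and 106 FPKM in naive libraries. Its replicates lay close together within each group. Its log2 difference between MLN-primed and spleen-primed cells was 0.58 ± 0.07 (SE, limma adjusted p = 3.43e-04), near the median of the CCT genes.

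Cct5 and Cct2, the epsilon and beta subunits, were the most abundant of the family and changed less between the primed groups. Cct5 had 463, 402 and 437 FPKM in MLN-primed libraries, 324, 326 and 292 FPKM in spleen-primed libraries and 198, 213 and 198 FPKM in naive libraries. Cct2 had 406, 368 and 355 FPKM in MLN-primed libraries, 290.1, 295 and 274 FPKM in spleen-primed libraries and 192, 183 and 197 FPKM in naive libraries. Neither gene overlapped between any groups. The log2 difference between MLN-primed and spleen-primed cells was 0.47 ± 0.08 for Cct5 (SE, limma adjusted p = 0.00157) and 0.39 ± 0.07 for Cct2 (limma adjusted p = 0.00244).

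Cct4, the delta subunit, was the least changed CCT gene against naive cells. It had 278, 232 and 228 FPKM in MLN-primed libraries, 191, 179.6 and 158 FPKM in spleen-primed libraries and 139, 138 and 139.8 FPKM in naive libraries. The groups did not overlap. Its log2 difference was 0.48 ± 0.09 between MLN-primed and spleen-primed cells (SE, limma adjusted p = 0.00395) and 0.34 ± 0.09 between spleen-primed and naive cells (limma adjusted p = 0.00705). The second value was 0.25 with median-of-ratios scaling (limma adjusted p = 0.0737) and -0.24 after quantile normalisation (limma adjusted p = 0.0132).

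**Figure D2:**
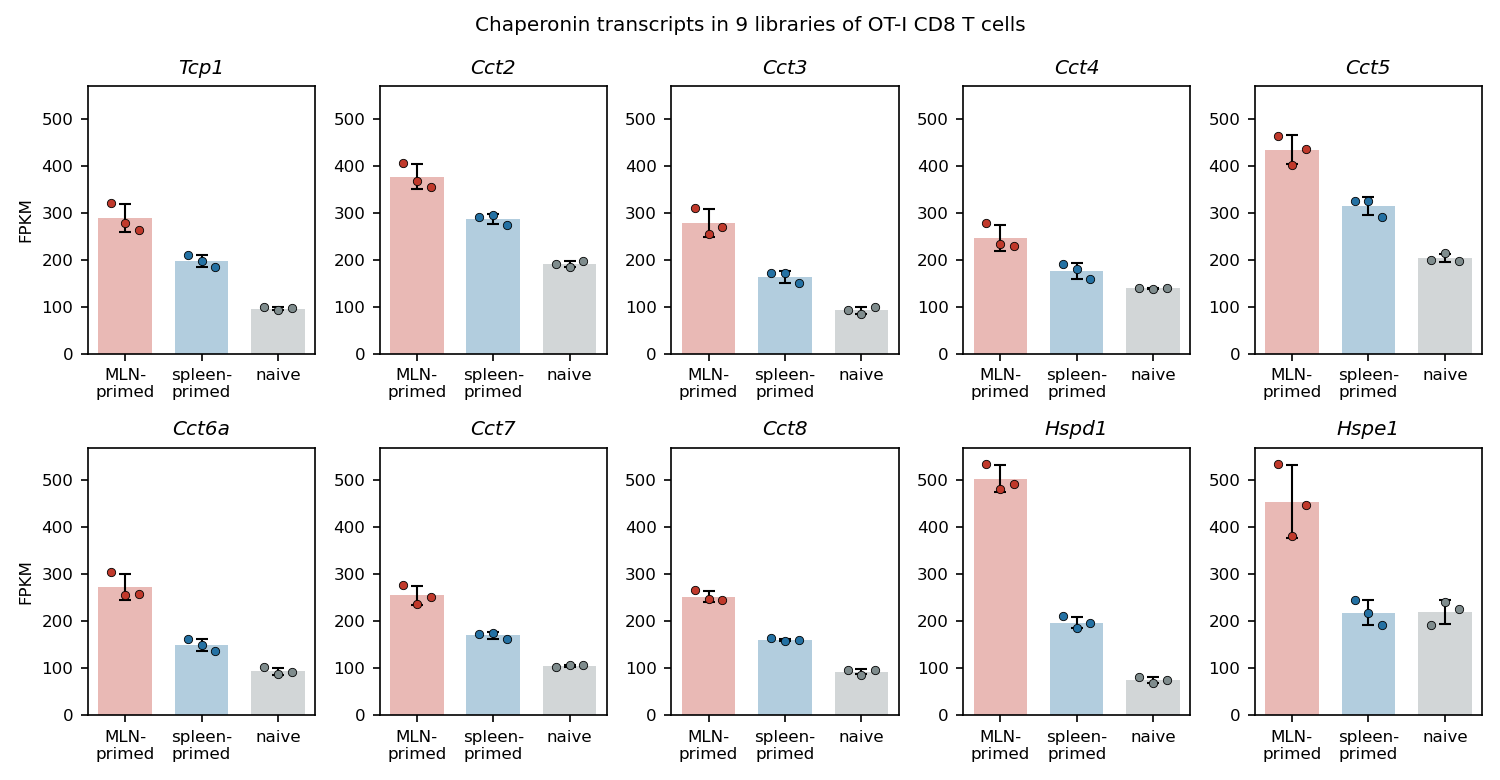
Level of each of the 10 chaperonin genes in FPKM in every library, with MLN-primed, spleen-primed and naive cells side by side, points for libraries, bars for group means and error bars for the SD. For 9 of the 10 genes the groups formed 3 separate steps with MLN-primed cells highest, and for Hspe1 the spleen-primed and naive points overlapped. After quantile normalisation Cct4 (-0.24) and Hspe1 (-0.59) were called lower in spleen-primed than in naive cells, and Cct2 (-0.033) was not called.

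In spleen-primed against naive cells 9 of the 10 genes were higher and Hspe1 did not pass the test, where 43.1% of all tested genes were higher and 32.7% lower. The same 9 did not overlap between the groups, as 44.5% of all tested genes, higher in spleen-primed cells, did not. Of all genes called, 56.8% were higher, and 46.6% after quantile normalisation. The median log2 change of the 8 CCT genes was 0.68 against 0.10 for all tested genes, and their changes ran between 0.34 for Cct4 and 1.03 for Tcp1. The CCT count rested on the scaling, since after quantile normalisation 4 of the 10 chaperonin genes were higher and 2, Cct4 and Hspe1, were lower, and Cct2 was at -0.033. Under that setting the median of all tested genes was at -0.07. In MLN-primed against naive cells all 10 genes were higher, without overlap, where 45.5% of all tested genes were higher, 33.2% lower and 45.8% higher without overlap, although Cct4 did not pass after quantile normalisation (0.18, limma adjusted p = 0.0519). The median log2 change of the CCT genes was 1.36 against 0.15 for all tested genes. Hspd1 had 2.73 ± 0.08 in that comparison (SE, limma adjusted p = 8.86e-10), a ratio of 6.72, and Hspe1 had 1.04 ± 0.14 (limma adjusted p = 5.62e-05). Cct3 at 1.58, Tcp1 at 1.57 and Cct6a at 1.53 led the ring subunits, and Cct4 at 0.82 and Cct2 at 0.98 were the smallest changes. The comparisons share libraries, so they are not independent of each other.

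**Figure D3:**
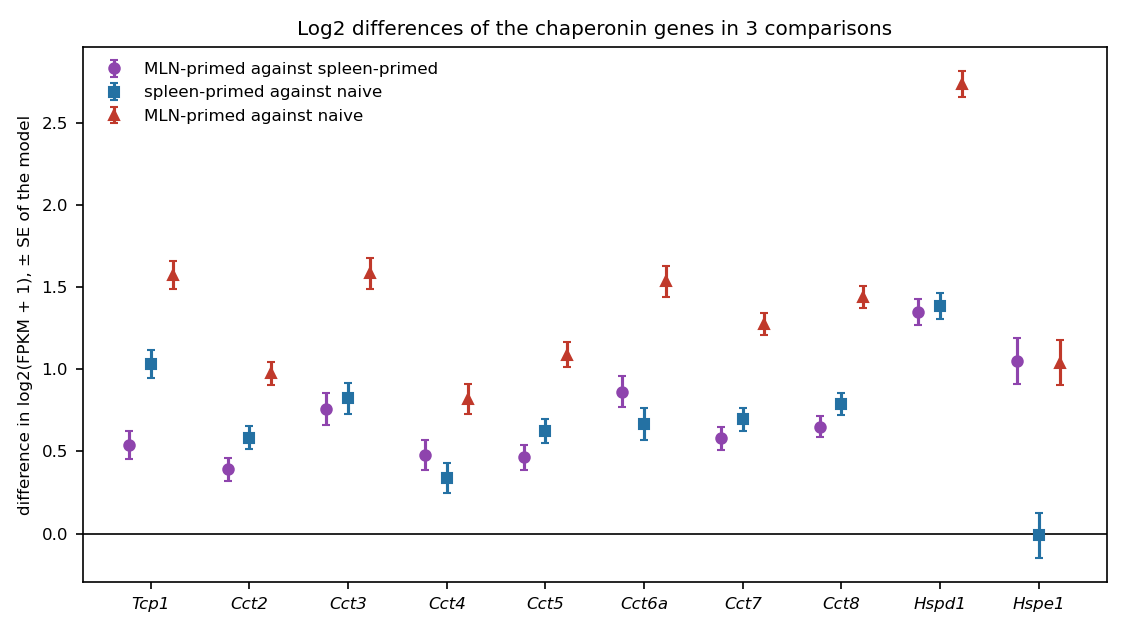
Log2 difference of each chaperonin gene with its standard error in MLN-primed against spleen-primed, spleen-primed against naive and MLN-primed against naive cells, from limma on log2(FPKM + 1), with a line at 0. Hspd1 was the largest change in each comparison, and Hspe1 was at -0.01 in spleen-primed against naive cells. In that comparison, after quantile normalisation, Cct4 (-0.24) and Hspe1 (-0.59) were called lower and Cct2 (-0.033) was not called.

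Because each CCT ring takes up its 8 subunits in equal number, the spread of their transcript levels was measured within each library. The summed level of the 8 genes averaged 2403 ± 195 FPKM in MLN-primed, 1617 ± 90.0 FPKM in spleen-primed and 1011 ± 19.3 FPKM in naive libraries (SD, n = 3 each), and the groups did not overlap. The coefficient of variation over the subunits was 22.9 ± 1.67% in MLN-primed, 31.0 ± 1.28% in spleen-primed and 36.8 ± 3.12% in naive libraries. The highest subunit exceeded the lowest by a factor of 1.79 in MLN-primed, 2.11 in spleen-primed and 2.27 in naive cells, and by library this factor overlapped between spleen-primed (2.004 to 2.19) and naive (2.14 to 2.54) cells. The coefficients did not overlap between groups, with MLN-primed libraries the most even and naive libraries the least even. With 3 libraries a group, an exact permutation test cannot go below p = 0.1.

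Cct5 was the most abundant subunit in all 9 libraries, with 18.1% of the summed CCT level in MLN-primed, 19.4% in spleen-primed and 20.1% in naive cells. Cct2 came next in each group mean, and its replicates overlapped those of Cct5 in the MLN-primed and spleen-primed groups but not in the naive group. Below Cct2, each neighbour in the order overlapped the next in MLN-primed and in spleen-primed cells, with a gap between Cct2 and the rest. In naive cells Cct4 and Cct7 each stood apart, while Tcp1, Cct6a, Cct8 and Cct3 overlapped their neighbours at means of 92.1 to 95.9 FPKM. Cct4 held 10.2% of the sum in MLN-primed, 10.9% in spleen-primed and 13.7% in naive cells. Tcp1 held 12.0% in MLN-primed, 12.2% in spleen-primed and 9.48% in naive cells. Cct6a held 11.3% in MLN-primed, 9.22% in spleen-primed and 9.23% in naive cells. For Cct6a the MLN-primed libraries lay above all others, for Tcp1 the naive libraries lay below all others, and for Cct4 they lay above all others.

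**Figure D4:**
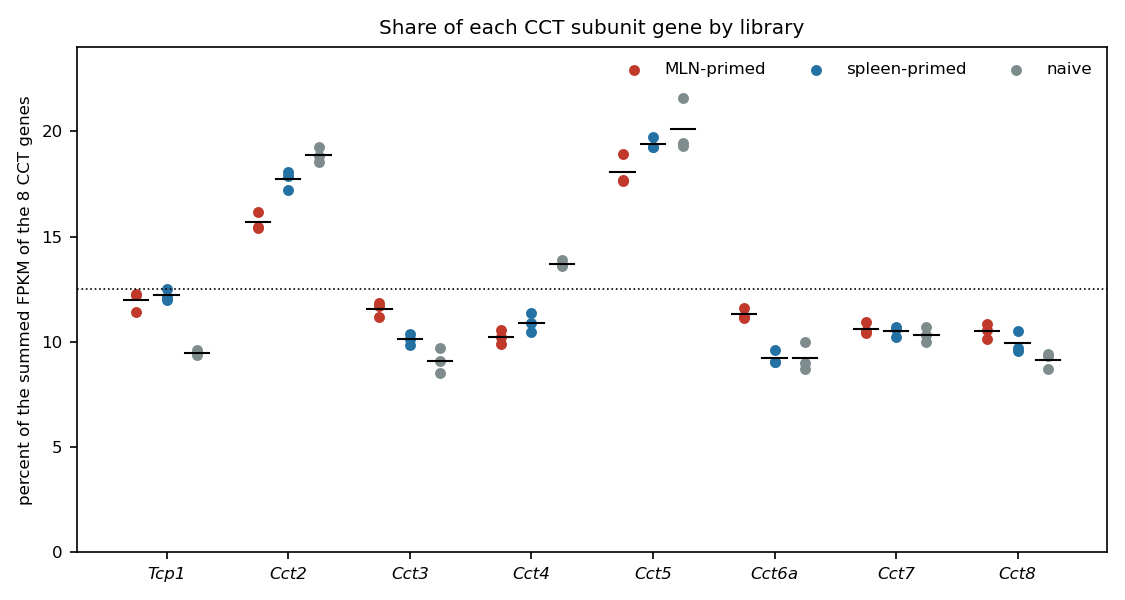
Share of the summed CCT level, in percent, held by each of the 8 subunit genes in MLN-primed, spleen-primed and naive cells, with points for libraries, black lines for means and a dotted line where all shares would be equal. Shares ran between 10.2% and 18.1% in MLN-primed, 9.22% and 19.4% in spleen-primed and 9.11% and 20.1% in naive cells.

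Some CCT exons overlap those of other genes on the opposite strand, which bears on the levels if strand was not used. Tcp1 shares 571 exonic bases with Acat3 and 141 with Mrpl18, Cct6a shares 452 with Psph, Cct7 shares 214 with Pradc1 and Cct8 shares 192 with Usp16. Overlaps with small nucleolar RNA genes on the same strand would remain if strand was used. Tcp1 shares 138 exonic bases with Gm26130 in this way, and Cct6a shares 102 with Snora15. RefSeq lists 5 pseudogenes of Cct7, 3 of Cct3, 2 each of Cct6a and Cct8 and 1 each of Tcp1 and Cct4. Reads shared with them cannot be told apart here.

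Genes whose course over the 9 libraries lay nearest to that of a chaperonin gene were sought among 7358 genes with a mean of 5 FPKM or more. The measure was the root mean square difference of log2 values after each gene was centred on its own mean. Nearest to Hspd1 were Thop1, a peptidase, at 0.17, Tfrc, the transferrin receptor, at 0.17 and Chchd10, a mitochondrial intermembrane space protein, at 0.19. Sqle, an enzyme of cholesterol synthesis, at 0.21 and Ppa1, a cytosolic pyrophosphatase, at 0.21 followed. Tfrc had 44.8, 37.8 and 35.9 FPKM in MLN-primed libraries, 19.1, 16.8 and 18.3 FPKM in spleen-primed libraries and 6.02, 6.74 and 6.91 FPKM in naive libraries. It formed the same 3 steps as Hspd1. Hspe1 was the 1469th gene from Hspd1, at 0.76.

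Nearest to the mean of the CCT genes was 1 of them, Cct7, at 0.04, although Cct7 is itself part of that mean. Eif2s2, a subunit of the translation initiation factor eIF2, at 0.04 and Mars, the methionyl-tRNA synthetase, at 0.06 came next, followed by Atp5g1, a subunit of ATP synthase, Hnrnpc, an RNA-binding protein, and Phb2, a prohibitin of the inner mitochondrial membrane, at 0.06 to 0.07. Eif2s2 had 137, 122 and 122 FPKM in MLN-primed libraries, 91.3, 88.6 and 84.7 FPKM in spleen-primed libraries and 52.3, 52.1 and 55.8 FPKM in naive libraries. The other subunits, also part of the mean, lay farther from it than these genes. Cct8 was the 11th gene from the mean, Cct5 the 45th, Cct3 the 121st and Cct2 the 123rd. Cct6a was the 132nd, Tcp1 the 215th and Cct4 the 523rd. Nearest to Hspe1, which was examined after its values were seen, was Npm1, a nucleolar protein of ribosome assembly, at 0.13. Npm1 averaged 1658 ± 115 FPKM in MLN-primed, 764 ± 10.1 FPKM in spleen-primed and 862 ± 60.3 FPKM in naive cells (SD, n = 3 each). Hspa9, the mitochondrial HSP70, was the 11th gene from Hspe1, at 0.19.

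The other chaperones of the mitochondrial matrix were examined next. The counts of this and the later lists stand beside these shares of all tested genes. In MLN-primed against spleen-primed cells 17.3% were higher and 13.1% lower. In spleen-primed against naive cells 43.1% were higher and 32.7% lower, and in MLN-primed against naive cells 45.5% were higher and 33.2% lower. Of 8 genes of the mitochondrial HSP70 system and Trap1, 3 were higher and 1 lower in MLN-primed against spleen-primed cells, 4 higher in spleen-primed against naive cells, and 6 higher and 1 lower in MLN-primed against naive cells. After quantile normalisation 2 were higher in spleen-primed against naive cells, as the calls on Dnajc19 (0.23) and Dnlz (0.21) ended, and 3 were lower, Hspa9 (-0.48), Hscb (-0.34) and Dnaja3 (-0.26). The Dnlz call also ended when any library other than naive 3 was left out, with values of 0.17 to 0.21. Hspa9, which pulls in imported proteins and passes them to the chaperonin, had 162, 154 and 167.5 FPKM in MLN-primed libraries, 73.8, 71.9 and 80.1 FPKM in spleen-primed libraries and 75.8, 68.6 and 76.0 FPKM in naive libraries. As with Hspe1, the MLN-primed libraries stood above all others and the spleen-primed and naive libraries overlapped. Its log2 difference between MLN-primed and spleen-primed cells was 1.09 ± 0.07 (SE, limma adjusted p = 1.64e-05), and between spleen-primed and naive cells it was 0.03 ± 0.07 (limma adjusted p = 0.665), with values of -0.48 to 0.10 over the other settings. Trap1, the mitochondrial HSP90, was higher by 0.46 and Dnaja3, a J-domain partner of Hspa9, by 0.39 in MLN-primed against spleen-primed cells. Hscb, a J-domain protein of iron-sulfur cluster assembly, was lower in that comparison at -0.42, a call that ended without MLN-primed 2 (-0.41), MLN-primed 3 (-0.44), spleen-primed 1 (-0.39) or spleen-primed 2 (-0.35).

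Of 11 mitochondrial protease and disaggregase genes, most of which act in protein quality control in the organelle, 6 were higher in MLN-primed against spleen-primed cells, 8 in spleen-primed against naive cells and 10 in MLN-primed against naive cells. None was lower, except that Spg7 (-0.25) was called lower in spleen-primed against naive cells after quantile normalisation, where 6 were higher. Over all tested genes, as deposited, 17.3%, 43.1% and 45.5% were higher in these comparisons, in that order. The list includes Pmpca and Pmpcb, the subunits of the processing peptidase that cuts presequences from imported proteins, which were among the 6 higher in MLN-primed against spleen-primed cells, at 0.33 and 0.46. Htra2, a protease of the intermembrane space, averaged 19.5 ± 1.55 FPKM in MLN-primed, 10.6 ± 1.11 FPKM in spleen-primed and 5.38 ± 0.692 FPKM in naive cells (SD, n = 3 each). Lonp1, the main matrix protease, averaged 39.5 ± 5.29 FPKM in MLN-primed, 23.8 ± 4.01 FPKM in spleen-primed and 15.5 ± 0.169 FPKM in naive cells (SD, n = 3 each). In MLN-primed against spleen-primed cells the log2 differences were 0.83 for Htra2, 0.71 for Lonp1 and 0.61 for Clpp, a matrix peptidase.

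The cytosolic HSP90 and HSP70 genes, which act beside CCT on newly made proteins, had 11 of 12 members tested. Of these, 6 were higher in MLN-primed against spleen-primed cells, 8 in spleen-primed against naive cells and 9 in MLN-primed against naive cells, and none was lower. After quantile normalisation 3 were higher in spleen-primed against naive cells, and the calls on Ahsa1 (0.10), Cdc37 (0.02), Hsp90ab1 (0.18), Hspa4 (0.20) and Hspa8 (0.41) ended. In MLN-primed against naive cells 7 were then higher and 1, Dnajb1 at -0.82, lower, and Dnajb1 was also called lower without naive 3 (-0.60). As deposited, the share of all tested genes higher was 17.3% in MLN-primed against spleen-primed cells. It was 43.1% in spleen-primed and 45.5% in MLN-primed against naive cells. Hsp90aa1, the inducible HSP90, averaged 894 ± 52.1 FPKM in MLN-primed, 405 ± 39.6 FPKM in spleen-primed and 110.1 ± 13.03 FPKM in naive cells (SD, n = 3 each). Its log2 difference between MLN-primed and spleen-primed cells was 1.14 ± 0.10 (SE, limma adjusted p = 7.44e-05). Hsp90ab1, the constitutive HSP90, was higher by 0.88 and Hsph1, a nucleotide exchange factor for HSP70, by 0.71. Hspa8, the constitutive HSP70, was at 0.46 with a limma adjusted p of 0.068, and was called after quantile normalisation (0.77), without spleen-primed 1 (0.67) and with each library scaled to the same FPKM total (0.49).

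Of 12 chaperones of the endoplasmic reticulum, a compartment outside the reach of both chaperonins, 5 were higher in MLN-primed against spleen-primed cells. They were Canx, Hsp90b1, Hyou1, Pdia6 and Pdia3, and the count was 3 without MLN-primed 1, MLN-primed 3, spleen-primed 2 or spleen-primed 3, where the calls on Pdia3 (0.18 to 0.23) and Pdia6 (0.26 to 0.36) ended. Without spleen-primed 1 it was 8, as Hspa5, Calr and Pdia4 were called too. Without MLN-primed 1 and spleen-primed 3, 3 were higher and 1, P4hb at -0.18, lower. In spleen-primed against naive cells 11 were higher and 1 lower, and the same counts held in MLN-primed against naive cells. Among all tested genes 17.3% were higher between the primed groups. Against naive cells 43.1% were higher and 32.7% lower in spleen-primed cells, and 45.5% and 33.2% in MLN-primed cells. Canx, a lectin chaperone, had a log2 difference of 0.48 and Hsp90b1, the HSP90 of that compartment, of 0.45 in MLN-primed against spleen-primed cells. Against the naive cells, Hsp90b1 was higher by 2.35 in the MLN-primed group and by 1.89 in the spleen-primed group.

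**Figure D5:**
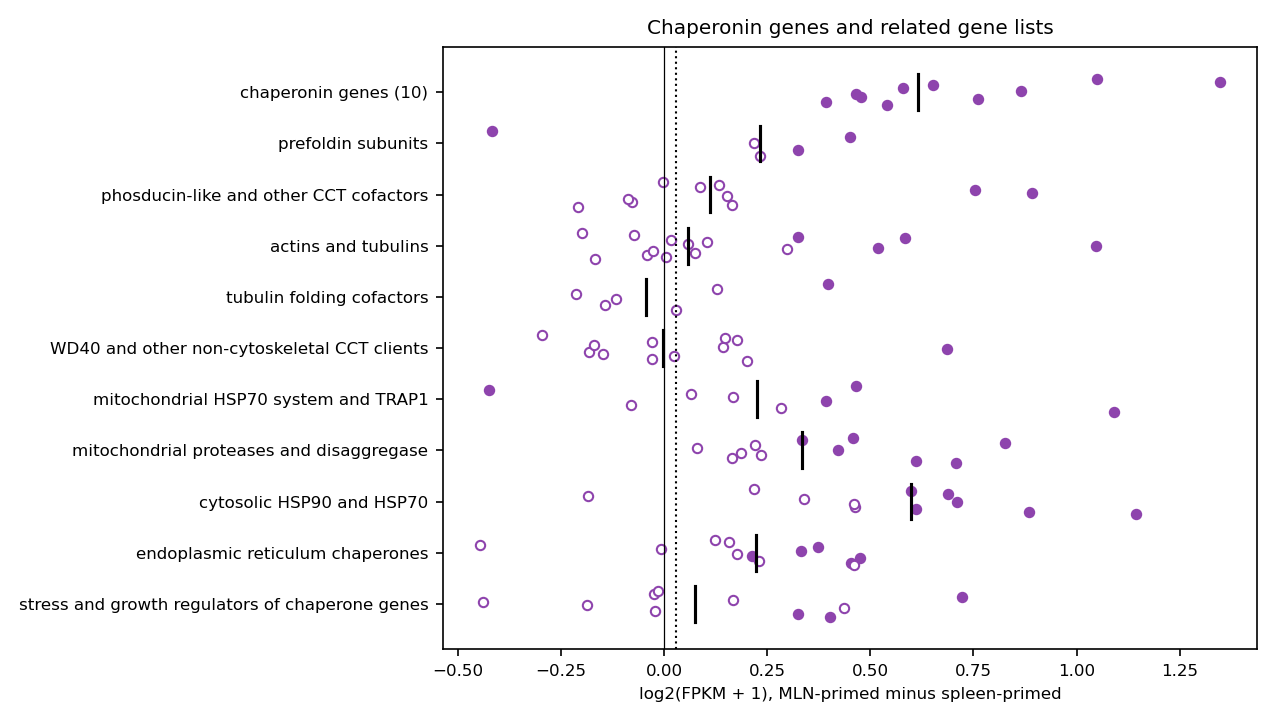
Log2 difference in MLN-primed against spleen-primed cells for each tested gene of the chaperonin genes and the related lists, with filled points for genes that passed the limma test and open points for those that did not, black bars for list medians and a dotted line for the median of all tested genes. Medians were 0.60 for cytosolic HSP90 and HSP70 and 0.33 for mitochondrial proteases, and 0.06 for actins and tubulins (with Actr2 and Actr3), close to the 0.03 of all tested genes.

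Prefoldin, the complex that delivers unfolded actin and tubulin to CCT, had 5 subunit genes in the table. In MLN-primed against spleen-primed cells 2 were higher and 1 lower, in spleen-primed against naive cells 3 were higher and 1 lower, and in MLN-primed against naive cells 4 were higher and 1 lower. The shares of all tested genes were 17.3% higher and 13.1% lower, 43.1% and 32.7%, and 45.5% and 33.2%, in that order. Pfdn4 was higher by 0.45 ± 0.09 in MLN-primed against spleen-primed cells (SE, limma adjusted p = 0.00343). Pfdn2 was higher by 0.32, a call that ended without MLN-primed 3 (0.27) or without spleen-primed 2 (0.29). After quantile normalisation Pfdn2 was lower in MLN-primed (-0.26) and in spleen-primed (-0.52) against naive cells. With the values as deposited the lower gene was Pfdn5 each time, with 203, 175 and 181 FPKM in MLN-primed libraries, 263, 262 and 223 FPKM in spleen-primed libraries and 407, 509 and 395 FPKM in naive libraries. Its 3 groups did not overlap and ran opposite to those of the CCT genes. Its call between MLN-primed and spleen-primed cells, at -0.42, ended without MLN-primed 2 (-0.37), MLN-primed 3 (-0.40), spleen-primed 1 (-0.38) or spleen-primed 2 (-0.38).

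A list of 10 genes held phosducin-like and other CCT cofactors, along with Ruvbl1 and Ruvbl2, paired ATPases of chromatin remodelling and of the R2TP co-chaperone. Of the 10, 2 were higher in MLN-primed against spleen-primed cells, and 7 were higher and 2 lower in each comparison with naive cells. The 2 higher between the primed groups were Ruvbl1 and Ruvbl2. None of the phosducin-like genes Pdcl (-0.21), Pdcl3 (0.17) and Txndc9 passed between the primed groups with the values as deposited. Without MLN-primed 1 and spleen-primed 3, Pdcl (-0.33) and Ppp4c (-0.23) were called lower in that comparison. As background, 17.3% of all tested genes were higher between the primed groups. Against naive cells 43.1% were higher and 32.7% lower in spleen-primed cells, and 45.5% and 33.2% in MLN-primed cells. Ruvbl1 averaged 68.5 ± 3.94 FPKM in MLN-primed, 36.4 ± 2.22 FPKM in spleen-primed and 25.1 ± 1.06 FPKM in naive cells (SD, n = 3 each). Ruvbl2 averaged 83.0 ± 5.33 FPKM in MLN-primed, 48.8 ± 0.602 FPKM in spleen-primed and 31.8 ± 1.63 FPKM in naive cells (SD, n = 3 each). Between MLN-primed and spleen-primed cells the log2 difference was 0.89 ± 0.07 for Ruvbl1 (SE, limma adjusted p = 4.37e-05) and 0.75 ± 0.07 for Ruvbl2 (limma adjusted p = 7.95e-05).

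Actins and tubulins are the main proteins folded by CCT. A list of 15 genes held actins, tubulins and the actin-related Actr2 and Actr3 of the Arp2/3 complex. In MLN-primed against spleen-primed cells 4 of the 15 were higher, and the median log2 change of the list was 0.06. Actr2 was at -0.07 and Actr3 at -0.20, and Actr3 was called lower (-0.34) without MLN-primed 1 and spleen-primed 3. Those 4 were Tubb2b at 1.05, Tubb6 at 0.58, Tubb2a at 0.52 and Tubg1 at 0.33, of which the Tubg1 call ended without MLN-primed 3 (0.28) or spleen-primed 1 (0.27). Tubb6 lay near the filter of 1 FPKM, at 1.59 to 1.66 FPKM in MLN-primed and 0.616 to 0.992 FPKM in spleen-primed libraries. The most abundant members did not pass: Actb, cytoplasmic beta-actin, averaged 4778 ± 273 FPKM in the MLN-primed group and 5368 ± 363 FPKM in the spleen-primed group (SD, n = 3 each, limma adjusted p = 0.281). Tubb5 averaged 970.1 ± 41.4 FPKM in the MLN-primed group and 959 ± 31.1 FPKM in the spleen-primed group (SD, n = 3 each, limma adjusted p = 0.887). In spleen-primed against naive cells 12 of the 15 were higher and 3 lower, and in MLN-primed against naive cells 12 were higher and 1 lower. Those 3 were Tubb2a (-1.50), Tubb2b (-1.05) and Tubb6, all among the 4 higher between the primed groups. The 1 was Tubb2a (-0.98), and Tubb2b averaged 11.4 FPKM in MLN-primed and 11.5 FPKM in naive cells. Of all tested genes 17.3% were higher between the primed groups. Against naive cells 43.1% were higher and 32.7% lower in spleen-primed cells, and 45.5% and 33.2% in MLN-primed cells. Tuba1b was higher by 2.50 in MLN-primed against naive cells and by 2.42 in spleen-primed against naive cells. Tubb3, a beta-tubulin best known from neurons, was higher by 3.04 in MLN-primed against naive cells and by 2.98 in spleen-primed against naive cells.

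Other clients of CCT include cell cycle proteins and signalling subunits. Of 12 WD40 and other clients of CCT, 1 was higher in MLN-primed against spleen-primed cells, Ccne1 (cyclin E1), at 0.69 ± 0.08 (SE, limma adjusted p = 2.67e-04). In spleen-primed against naive cells 8 were higher and 1 lower, and in MLN-primed against naive cells 8 were higher and 2 lower. Of these 2, Rptor, a subunit of the kinase complex mTORC1, was at -0.36, and its call ended without MLN-primed 1 (-0.25) or naive 3 (-0.34) and with the length trend removed (-0.06). After quantile normalisation 7 were higher and 3 lower in spleen-primed against naive cells, where 8 were higher and 2 lower without MLN-primed 1 and spleen-primed 3. Without those libraries 3 were higher in MLN-primed against spleen-primed cells, Fzr1 (0.24) and Plk1 (0.32) being added. For this list and the next, 17.3% of all tested genes were higher between the primed groups, as deposited. Against naive cells 43.1% were higher and 32.7% lower in spleen-primed cells, and 45.5% and 33.2% in MLN-primed cells. Plk1, a mitotic kinase, averaged 118 ± 10.9 FPKM in MLN-primed, 104 ± 9.51 FPKM in spleen-primed and 0.538 ± 0.117 FPKM in naive cells (SD, n = 3 each). Of 6 tubulin folding cofactors, which assemble the tubulin dimer after CCT, 1 was higher in MLN-primed against spleen-primed cells. It was Arl2, a small GTPase, at 0.40, and its call ended without MLN-primed 1 (0.38), MLN-primed 2 (0.40), MLN-primed 3 (0.41), spleen-primed 2 (0.35) or spleen-primed 3 (0.37). In spleen-primed against naive cells 4 were higher and 1 lower, and in MLN-primed against naive cells 4 were higher. Tbca was called lower as well after quantile normalisation, at -0.73 in MLN-primed and -0.68 in spleen-primed against naive cells. With the length trend removed it was at -0.59 in MLN-primed and -0.63 in spleen-primed against naive cells. Without MLN-primed 1 and spleen-primed 3, Tbcb (-0.31) was called lower in MLN-primed against spleen-primed cells.

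Of 10 regulators of chaperone genes, 3 were higher in MLN-primed against spleen-primed cells, 1 was higher and 4 lower in spleen-primed against naive cells, and 3 were higher and 3 lower in MLN-primed against naive cells. The last count was 2 higher and 5 lower after quantile normalisation, and 3 higher and 1 lower with each library scaled to the same FPKM total. Atf4 was 1 of the 3 higher in MLN-primed against naive cells, at 0.56 (limma adjusted p = 0.0197). Its call there ended without MLN-primed 3 (0.49), naive 1 (0.47) or naive 3 (0.40). It also ended with median-of-ratios scaling (0.41), with the length trend removed (0.42), without the filter (0.56) and after quantile normalisation (-0.04). Without naive 2, Atf4 (0.37) was also called higher in spleen-primed against naive cells. Beside these counts, 17.3% of all tested genes were higher between the primed groups, as deposited. Against naive cells 43.1% were higher and 32.7% lower in spleen-primed cells, and 45.5% and 33.2% in MLN-primed cells. Myc, a transcription factor of cell growth, had 21.5, 26.0 and 25.2 FPKM in MLN-primed libraries, 11.7, 13.9 and 17.7 FPKM in spleen-primed libraries and 28.3, 34.5 and 34.0 FPKM in naive libraries. Naive cells were thus highest, and the groups did not overlap. Its log2 difference was 0.72 ± 0.14 between MLN-primed and spleen-primed cells (SE, limma adjusted p = 0.00407) and -1.12 ± 0.14 between spleen-primed and naive cells (limma adjusted p = 4.32e-05). Between MLN-primed and naive cells it was -0.40 (limma adjusted p = 0.0244), a call that ended without MLN-primed 1 (-0.32), naive 2 (-0.35) or naive 3 (-0.36). Hsf1 and Hsf2, the heat shock factors, were higher by 0.40 and 0.32, in that order, in MLN-primed against spleen-primed cells, with adjusted p of 0.0462 and 0.0485 in limma. The Hsf1 call ended without MLN-primed 2 (0.38), MLN-primed 3 (0.31), spleen-primed 1 (0.32), spleen-primed 2 (0.41), naive 2 (0.40) or naive 3 (0.40). The Hsf2 call ended when any library other than naive 2 was left out, with values of 0.25 to 0.39.

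Of 5 paralogs and divergent relatives of the chaperonins, 2 passed the filter. Mkks, a chaperonin-like protein that helps to assemble the ciliary BBSome, averaged 8.22 ± 0.763 FPKM in MLN-primed, 7.95 ± 0.709 FPKM in spleen-primed and 7.07 ± 0.817 FPKM in naive cells (SD, n = 3 each) and passed no test with the values as deposited. In MLN-primed against naive cells it passed with the replicate block (0.19, limma adjusted p = 0.0452) and with each library scaled to the same FPKM total (0.27). Bbs12, of the same assembly complex, was higher against naive cells by 0.50 in MLN-primed cells (limma adjusted p = 0.00545) and by 0.33 in spleen-primed cells (limma adjusted p = 0.0406). Its levels lay near the filter, at 1.19 to 1.27 FPKM in MLN-primed, 0.967 to 1.006 FPKM in spleen-primed and 0.382 to 1.014 FPKM in naive libraries. The call in spleen-primed cells ended when MLN-primed 2 or 3, spleen-primed 1, 2 or 3, or naive 1 (0.24) or 2 (0.25) was left out. Cct6b, the testis form of Cct6a, was at 0.114 to 0.127 FPKM in MLN-primed, 0.204 to 0.242 FPKM in spleen-primed and 0.0269 to 0.238 FPKM in naive libraries, and Cct8l1 was listed at 0 in all 9 libraries.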

How the data were processed

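Gene levels were deposited by the authors as FPKM, 1 value per gene and library. The tools TopHat and Cufflinks and the genome build mm10 are named, without their roles, per the submitters' processing notes. Versions, the annotation and the strand setting are not stated in the labels or notes used. A second deposited table held the same values and was not used. Of 24067 rows, 131 without a gene symbol (0.0479% of all FPKM) were left out.

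Values were taken as log2(FPKM + 1), so fold changes of low genes are understated. Genes at 1 FPKM or more in at least 3 libraries (10185) were fitted with limma 3.58.1 (R 4.3.3), with all 9 libraries in 1 model of 3 groups, a variance trend and Benjamini-Hochberg adjustment over all tested genes. A call is an adjusted p under 0.05. Intervals are 95% intervals of that model. Tables and figures used Python 3.11.15 with numpy 2.4.6, pandas 2.3.3 and matplotlib 3.10.9. The fit was tested on 10 simulated sets for MLN-primed against spleen-primed cells, with normal noise and 200 of 10185 genes changed. It recovered 57.2% of genes changed by 0.5, 90.1% by 1 and 98.4% by 2 on the log2 scale. Of its calls 5.32% were false. Far more genes were called in the deposited values, so these shares need not hold there.

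The members and the related lists were chosen with earlier results of these data known. The genes named are all 10 chaperonin genes, up to 3 higher and 3 lower genes of each related list per comparison, and the 5 genes nearest to Hspd1 and to the CCT mean; others are named to identify a list's most abundant members or a count, after their values were seen. Promoter windows and gene positions are from RefSeq (GRCm38.p6). Of the 10 genes, 9 matched a window.

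Same-numbered libraries were checked for pairing by the correlation of their deviations from the group means, which ran from -0.240 to 0.645, above 0.1 in 7 of 9 pairs. Between spleen-primed and naive cells all 3 were above 0.1 (0.160, 0.116 and 0.236), so these may be paired, from the data and not from the labels. These are weak grounds, since MLN-primed 2 and spleen-primed 3, with different numbers, reached 0.512. The reported fit and the permutation test of the ratio treated all libraries as unpaired. The replicate block, over all 9 libraries, was an alternative only. Alternatives covered the pseudocount, the filter, the scaling, the variance model, the replicate block, a length trend and each library left out.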

Additional observations from a re-analysis of the deposited data

How the results depend on the processing

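Of the counts of chaperonin genes called, 62 of 63 stayed within 1.5 times the reported value over the 21 alternatives. The exception was spleen-primed against naive cells after quantile normalisation, with 4 higher and 2 lower. Of the single-gene values, 616 kept their direction and their side of the threshold, and the exceptions follow. After quantile normalisation, spleen-primed against naive cells gave Cct2 -0.033, Cct4 -0.24, Cct5 0.01, Cct6a 0.08, Cct7 0.11 and Hspe1 -0.59, and MLN-primed against naive cells gave Cct4 0.18. Quantile normalisation moved the median of all tested genes to -0.04 in MLN-primed and -0.07 in spleen-primed against naive cells, where the deposited values gave 0.15 in MLN-primed and 0.10 in spleen-primed against naive cells. Median-of-ratios scaling gave Cct4 0.25 in spleen-primed against naive cells, and removal of the length trend gave Hspe1 -0.42. The Hspe1 difference there ran from -0.10 to 0.079 with each library left out, was 0.079 without MLN-primed 1 and spleen-primed 3, and was 0.052 with each library scaled to the same FPKM total, a setting chosen after the data were seen. With the replicate number as a block, the counts of chaperonin genes higher were 10 in MLN-primed against spleen-primed, 9 in spleen-primed against naive and 10 in MLN-primed against naive cells, and no call on a chaperonin gene changed. Counts over the related lists, with higher and lower counted apart, moved by over 1.5 times in 92 of 1386 cases over all 21 alternatives, among them 15 of 66 under quantile normalisation, 6 of 66 under median-of-ratios scaling and 1 of 66 with the replicate block. For these lists, settings other than median-of-ratios scaling and the block were chosen after the data were seen. The differences in the Hspd1 to Hspe1 ratio kept their direction with a pseudocount of 1 and with each library left out. The causes of these shifts were not tested. Depth limits cannot be given without read numbers.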
